A study of Homo sapiens with 4 samples.

Results

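The genes described here are 59 genes that detect, signal and repair DNA double-strand breaks. They were chosen by gene symbol and form 4 lists, with 14 genes of damage signalling, 19 of homologous recombination, 14 of the Fanconi pathway and 12 of end joining. Of the 59 genes, 57 were among the 14911 genes with a count in at least 1 library, while FANCB and XRCC4 were not listed in any. The libraries came from HEK293T, a human embryonic kidney line, and all were made after X-ray exposure, with a dose of 10 Gy in the study's methods. The cells carried a control shRNA (shCTL) or an shRNA against ALKBH5 (shA5), the enzyme that takes the methyl group of N6-methyladenosine (m6A) off mRNA. In each population polyA RNA was sequenced before (input) and after (m6A-IP) immunoprecipitation with an m6A antibody, with 1 library in each of the 4 groups. Harvest time after irradiation is not stated for these libraries, nor is which of 2 ALKBH5 shRNAs they carried. No irradiated library has an unirradiated partner, so the response to X-rays itself was not measured.

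The shA5 input was the shallowest library at 1311390 counts, followed by the shCTL input at 2237819. The m6A-IP libraries were deeper, holding 3148119 counts (shA5) and 3944402 (shCTL). A single count was worth 0.763 CPM (counts scaled to a library total of 1000000) in the shA5 input and 0.447 in that of shCTL, against 0.318 and 0.254 in their m6A-IPs. As m6A enrichment, the CPM of the m6A-IP was divided by that of the input after adding 0.5 CPM to both, and given on the log2 scale. A value was called where it lay at or past 1.5-fold in either direction, and calls were made only where the 4 libraries averaged 50 counts or more for the gene. Of all genes 5320 passed that minimum, and of the 59 repair genes 23 did. Precision is given by exact 95% intervals from the counts, without the added 0.5 CPM. Reads amplified by PCR without molecular identifiers are not independent molecules, so these intervals cover counting error only. Since every group was a single library, no difference below has a replicate check. Where 4 counts of a gene follow one another, the first pair is from shCTL and the second pair from shA5, each with the input before the m6A-IP.

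ALKBH5 itself had 486, 1432, 145 and 589 counts in that order. Its input RNA was lower in shA5 by a log2 change of -0.97 (95% interval -1.25 to -0.70), and its m6A-IP RNA by -0.95, so both shA5 libraries fit their label. The m6A enrichment of ALKBH5 mRNA was 0.74 in shCTL and 0.76 in shA5. Of 5 genes chosen as markers of this cell line, LIN28B had 74, 68, 28 and 34 counts, while VIM and NEFM had 2 to 8 counts in each library and PAX2 and SOX11 no more than 1. The leukocyte genes PTPRC and CD3E, the hepatocyte genes ALB and APOA1 and the endothelial gene CDH5 were not listed, and PECAM1 had 0, 0, 0 and 2 counts. COL1A1, chosen as a fibroblast marker, had 401, 578, 150 and 246 counts, while COL1A2 and DCN were not listed. Of the 5 markers of the line only LIN28B had more than a few counts, and COL1A1 had more counts than LIN28B. The line is thus named as in the study, and these markers do not establish it. COL1A1 input RNA fell by 0.65 on the log2 scale in shA5 and LIN28B input RNA fell by 0.62, and any part of such differences between the cultures in the values below was not tested. In bulk RNA, fewer cells expressing a gene and less of its RNA per cell cannot be told apart.

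A double-strand break is first bound by the MRN complex, which activates the kinase ATM, while single-stranded DNA at processed ends activates ATR, and mediator proteins spread the signal along the chromatin beside the break. The break is then either joined directly by the end-joining factors, or cut back to single-stranded tails and copied from the sister chromatid by homologous recombination, a route open in S and G2 phase. The Fanconi proteins open and repair crosslinked DNA and share nucleases and BRCA proteins with recombination. On mRNA, m6A is written in a short sequence context, most often in long exons and near the end of the coding sequence, and it affects how long an mRNA lasts.

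The 59 genes differed widely in how much signal they carried. All their counts together came to 18492, 26018, 10346 and 19731 in the order given above. PARP1 alone held 41.4% of these counts and the 5 genes with the most counts, PARP1, MDC1, SLX4, XRCC2 and FANCG, held 84.0%. At the other end, 12 of the 57 listed genes had under 10 counts in the shCTL input. The plot of CPM by library shows this range for every listed gene.

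**Figure D1:**
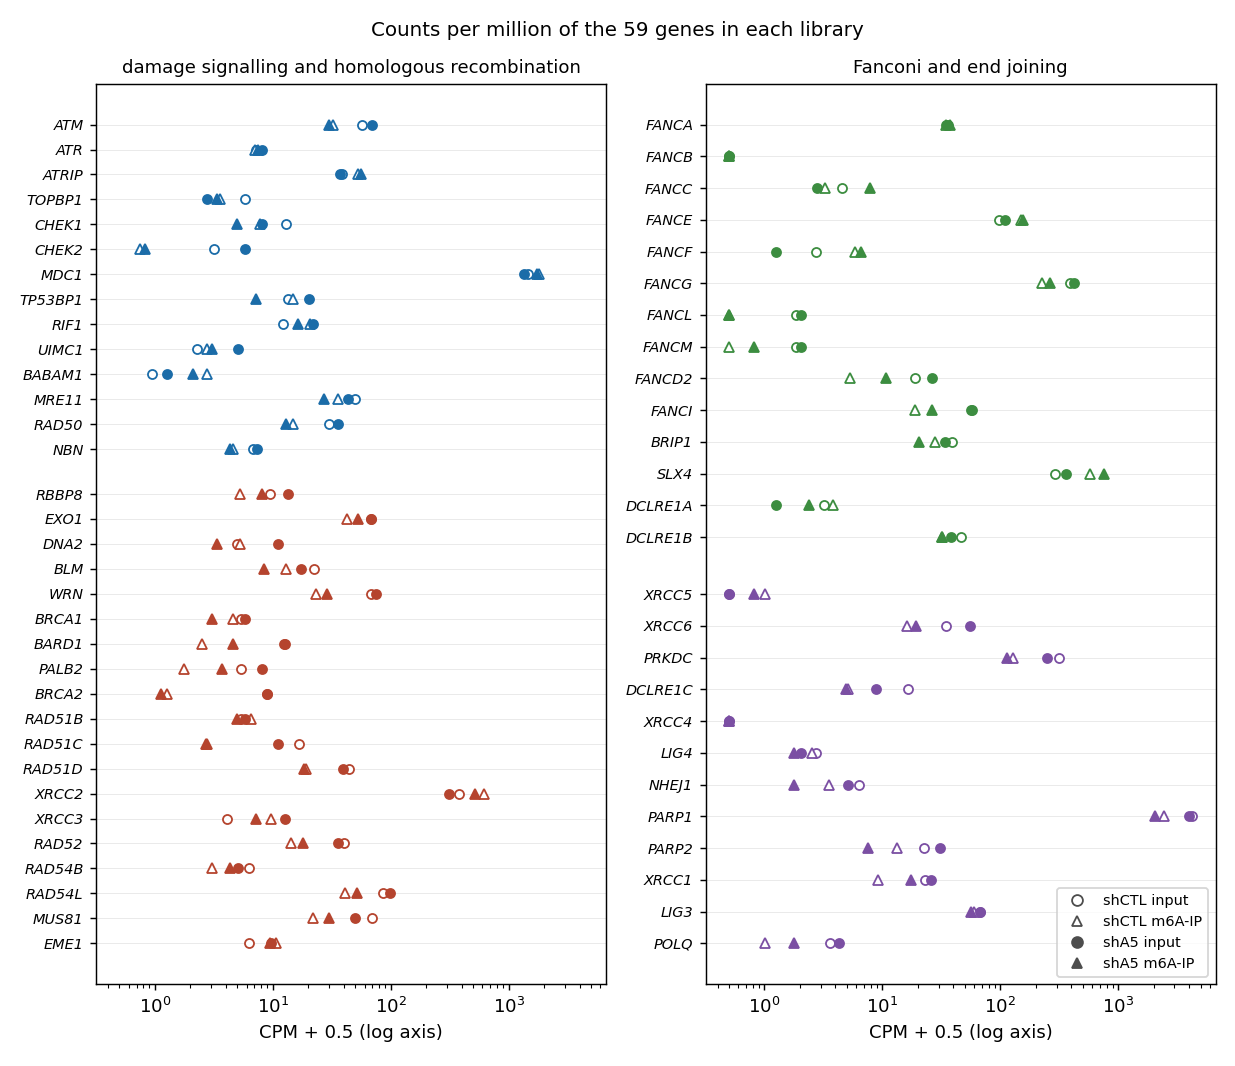
CPM plus 0.5 (log axis) of the 59 genes in the 4 libraries, circles for input and triangles for m6A-IP, open for shCTL and filled for shA5. PARP1 and MDC1 stand above the rest in every library, and most points lie below 100 CPM.

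Levels of different genes can be set side by side only per length, so CPM was divided by the length of the listed transcripts in kilobases. On that scale PARP1, which senses broken DNA and builds ADP-ribose chains on nearby proteins, was the most abundant, with 1068 CPM per kilobase in shCTL input RNA and 999 in that of shA5. MDC1, the scaffold that binds phosphorylated H2AX, followed with 208 and 192, and FANCG, a Fanconi core protein, with 153 and 164. XRCC2, a member of the paralog complexes of recombination, came to 79.9 and 65.1, SLX4, the nuclease scaffold, to 40.1 and 49.5, and FANCE to 37.8 and 42.0. The lowest levels among the 23 genes were those of RAD50, a subunit of MRN, at 3.57 in shCTL and 4.24 in shA5, RAD51D at 4.57 and 4.01, and BRIP1 at 4.79 and 4.18. This order depends on the length used, as described further on for FANCG and PRKDC.

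By role, the signalling genes with at least 50 counts on average were ATM and ATRIP of the kinase axis, MDC1 of the chromatin mediators, and MRE11 and RAD50 of MRN, 5 of 14. Of the recombination genes 7 of 19 passed, namely EXO1 and WRN of end resection, RAD51D, XRCC2, RAD52 and RAD54L of strand exchange, and MUS81 of the joint molecule nucleases. None of the 4 BRCA mediators passed. Of the Fanconi genes 7 of 14 passed, with FANCA, FANCE and FANCG of the core complex, FANCI of the clamp that the core ubiquitinates, and BRIP1, SLX4 and DCLRE1B of the helicase and nuclease group. Of the end-joining genes 4 of 12 passed, XRCC6 and PRKDC of the classical route and PARP1 and LIG3 of the alternative one. RAD50 sat just inside the minimum with a mean of 52 counts and RIF1 just outside with a mean of 46.

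The first comparison asked how strongly the mRNAs of these genes were recovered with the m6A antibody in irradiated shCTL cells. SLX4, XRCC2 and FANCE were at least 1.5-fold higher in the m6A-IP than in the input, and 13 of the 23 genes were at least 1.5-fold lower. The lowest were MUS81, FANCI, WRN, RAD52 and PRKDC, at 2.45-fold to 3.12-fold less in the m6A-IP. Over all genes used, 22.5% were called higher in the m6A-IP and 30.3% lower. The 3 of 23 genes called higher are near or under that background and the 13 of 23 called lower are above it. The median enrichment of the 23 was -0.78 (order-statistic interval -1.09 to -0.18) beside -0.11 over all genes. Only genes above the count minimum enter these counts, and with a mean of at least 200 counts 7 genes were left, 3 higher and 3 lower, with a median of 0.31. All 2491 genes at that minimum had 29.1% higher, 21.7% lower and a median of 0.12, so the position of the members below all genes does not hold for these 7, whose median lay above.

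Enrichment depends on how the m6A-IP and input are scaled to each other. Library totals were used here, and the log2 ratio of the m6A-IP to the input factor was -0.29 with edgeR's TMM and -0.33 with DESeq2 in shCTL, and -0.33 and -0.32 in shA5. With those factors enrichments lie higher by about that amount, and by less in genes with few counts because of the added 0.5 CPM. With TMM in shCTL, PALB2 went from -1.62 to -1.38. In shCTL 5 of the 23 genes were then called higher and 9 lower with either method, with the share over all genes at 33.4% and 20.5% for TMM and 35.0% and 19.3% for DESeq2. In shA5 the split was 5 higher and 10 lower with either method, beside 36.7% and 21.3% of all genes for TMM and 36.4% and 21.5% for DESeq2. The distance of the members' median from the median of all genes was -0.67 in shCTL with library totals and -0.67 with TMM, and -0.64 in shA5 with both. Under TMM in shCTL, the lower call was lost by ATM at -0.52, PARP1 at -0.50, FANCG at -0.49 and EXO1 at -0.39, and the higher call was gained by ATRIP at 0.72 and MDC1 at 0.60. In shA5 BRIP1, MRE11, FANCG and MUS81 lost the lower call, and MDC1 and FANCE gained the higher one.

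In shA5 the same measure gave 3 genes called higher in the m6A-IP, XRCC2, SLX4 and ATRIP, and 14 called lower. All genes gave 24.3% higher and 31.7% lower, so the high calls of the members were again near or under the background and the low calls above it. The median was -0.73 (interval -1.11 to -0.23) beside -0.10 over all genes. Genes called lower in both populations numbered 12, and 2 were called higher in both. The same overlap was not counted over all genes, so these numbers only describe the 23 genes. EXO1 was called lower only in shCTL, MRE11 and BRIP1 only in shA5, FANCE was called higher only in shCTL and ATRIP only in shA5, and for these 5 genes the change of enrichment, given further on, did not reach 1.5-fold. Across the 23 genes the enrichments of both populations had a Spearman correlation of 0.85, and across all genes 0.93, as a description, since genes are not independent.

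**Figure D2:**
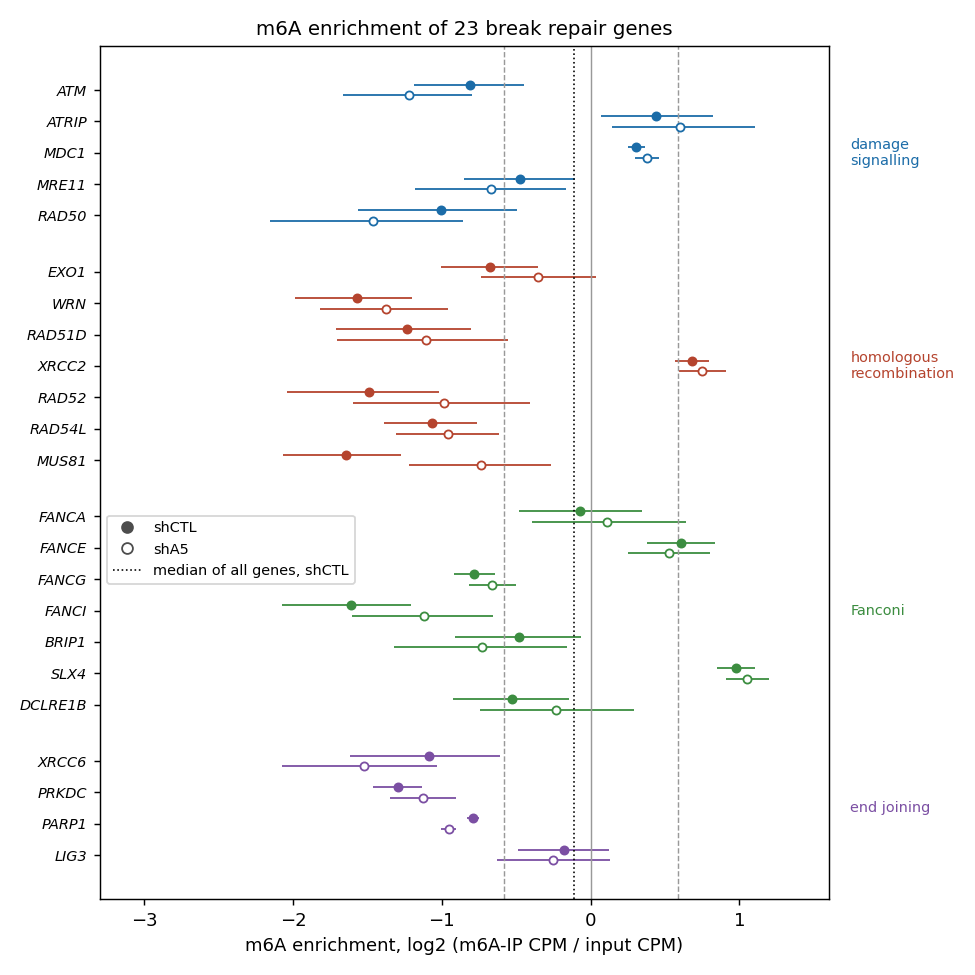
m6A enrichment (log2 of m6A-IP over input CPM) of the 23 genes with exact 95% counting intervals, filled for shCTL and open for shA5, with dashed lines at 1.5-fold. XRCC2 and SLX4 lie right of the upper dashed line in both populations, and 12 genes lie left of the lower one in both.

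Among the signalling genes the median enrichment was -0.47 in shCTL, with 0 of 5 called higher and 2 lower, and -0.67 in shA5, with 1 higher and 3 lower. ATM, the kinase that starts the response, had 126, 126, 90 and 92 counts and an enrichment of -0.81 (95% interval -1.19 to -0.45) in shCTL and -1.22 (-1.67 to -0.80) in shA5. Equal counts in input and m6A-IP mean a lower share of the deeper m6A-IP library. RAD50 had 66, 57, 46 and 39 counts and was called lower in both, at -1.0 (-1.57 to -0.50) and -1.46 (-2.16 to -0.85). MRE11, the MRN nuclease, had 110, 139, 56 and 84 counts, with -0.47 (-0.85 to -0.11) in shCTL and -0.67 (-1.18 to -0.16) in shA5. Both MRN genes above the minimum thus lay below the median of all genes in both populations.

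MDC1 and ATRIP were the signalling genes on the other side of 0. MDC1 had 3246, 7088, 1755 and 5478 counts. Its enrichment of 0.31 (0.25 to 0.37) in shCTL and 0.38 (0.30 to 0.46) in shA5 was known closely because of its depth, yet under 1.5-fold. ATRIP, which carries ATR to single-stranded DNA, had 86, 206, 48 and 176 counts and an enrichment of 0.44 (0.07 to 0.82) in shCTL and 0.60 (0.14 to 1.10) in shA5. Exons of ATRIP overlap those of TREX1 on the same strand and MDC1 overlaps the antisense gene MDC1-AS1. Whether the counting used strand is not stated, so counts of overlapping genes are uncertain.

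Sequences are shown for 7 genes toward both ends of the range, to let the letters be read beside the values. GGACT is the form of the m6A context that the methyltransferase is known to prefer. The capitals mark the match at the centre of each line, and the XRCC2 line holds a further match in lower case. Each line gives 29 bases around a match in the gene's most counted transcript, read 5′ to 3′ on the gene's strand from hg38 with Gencode v44. Of the matches whose 29 bases lie within a single exon, the match nearest to the end of the coding sequence is shown. Matches beside an exon junction can thus lie nearer than those shown. No line is given for FANCE, WRN and PRKDC, which also lie toward the ends of the range. A match is a description of the sequence and not a measured m6A site, as counts over whole transcripts do not locate m6A. Those of genes called higher in shCTL or lying above 0 come first.

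SLX4: gcgcaggctgttGGACTtcctggacaccc

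XRCC2: ttacatgcaaagGGACTgaggactccagt

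ATRIP: gaccaaccctgaGGACTcagtgtgcatcc

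MDC1: cacatgccctcaGGACTtccctcattgct

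MUS81: tgaccatgccccGGACTcaccatctggag

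FANCI: caccttgttaaaGGACTtgtgcaaaatgt

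RAD52: ggccacataattGGACTctgtcacaaagg

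The SLX4 match is in the coding sequence of exon 15 (chr16:3582437-3582465, minus strand), 106 bases from the end of the coding sequence, and the MDC1 match in the coding sequence of exon 15 (chr6:30700587-30700615, minus strand), 133 bases from it. The XRCC2 match is in the 3′ UTR in exon 3 (chr7:152645969-152645997, minus strand) at 2662 bases. The ATRIP match is in the coding sequence of exon 8 (chr3:48460437-48460465, plus strand) at 976 bases. Among the genes with low enrichment, the MUS81 match is in the coding sequence of exon 3 (chr11:65861351-65861379, plus strand) at 1372 bases and the FANCI match in that of exon 32 (chr15:89306137-89306165, plus strand) at 490 bases. The RAD52 match is in the 3′ UTR in exon 12 (chr12:913352-913380, minus strand), 28 bases past the coding end, the closest of the 7.

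The number of GGACT matches in the whole transcript was 13 for SLX4, 7 for ATRIP, 7 for MDC1, 4 for FANCE and 3 for XRCC2, and at the low end 9 for PRKDC, 6 for WRN, 5 for RAD52, 3 for FANCI and 2 for MUS81. Per kilobase SLX4 had 1.78, but RAD52 had 1.65 and XRCC2 only 0.629, so the ends of the range were not separated by this letter count. The median over the 23 genes was 0.917 per kilobase, beside 0.960 over 5292 genes with a sequence. Across genes its Spearman correlation with enrichment in shCTL was 0.26 for the 23 and 0.17 for the 5292, a weak relation over genes that are not independent.

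The recombination genes had the lowest median enrichment of the 4 lists in shCTL, -1.24, with 1 of 7 called higher and 6 lower. In shA5 it was -0.96, with 1 higher and 5 lower. MUS81, the nuclease that cuts branched joint molecules, is found on the plus strand of chromosome 11 from 65860433 to 65866439. It had 153, 85, 65 and 93 counts, more in the input than in the deeper m6A-IP for shCTL only. The enrichment was -1.64 (95% interval -2.07 to -1.27) in shCTL and -0.74 (-1.22 to -0.27) in shA5. Exons of MUS81 overlap the antisense gene CFL1, an abundant actin regulator, so its counts are uncertain.

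WRN, the helicase lost in Werner syndrome, had 152, 89, 97 and 89 counts and an enrichment of -1.57 (-1.98 to -1.20) in shCTL and -1.37 (-1.82 to -0.96) in shA5. RAD52, which anneals single strands, had 88, 54, 46 and 55 counts and -1.49 (-2.04 to -1.02) and -0.99 (-1.60 to -0.41). Both were called lower in either population. EXO1, the exonuclease of long-range resection, had 151, 166, 88 and 165 counts, with -0.67 (-1.01 to -0.35) in shCTL and -0.35 (-0.74 to 0.03) in shA5. RAD54L, the motor protein of strand invasion, had 191, 160, 130 and 160 counts, at -1.06 and -0.96, and RAD51D, of the same paralog family as XRCC2, had 99, 73, 51 and 56, at -1.24 and -1.11. XRCC2 stood apart within this list. It is found on the minus strand of chromosome 7 from 152644776 to 152676141, overlaps no other annotated gene, and had 853, 2415, 407 and 1645 counts, with an enrichment of 0.68 (0.57 to 0.80) in shCTL and 0.75 (0.59 to 0.91) in shA5.

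The Fanconi genes were spread over the whole range. Their median was -0.48 in shCTL, with 2 of 7 called higher and 2 lower, and -0.23 in shA5, with 1 higher and 3 lower. SLX4, on the minus strand of chromosome 16 from 3581181 to 3611606, had the highest enrichment of all 23 genes, with 656, 2277, 475 and 2365 counts. That is 0.98 (0.85 to 1.11) in shCTL and 1.05 (0.91 to 1.20) in shA5. FANCE, which links the core complex to FANCD2, had 218, 586, 142 and 491 counts, at 0.61 (0.38 to 0.84) in shCTL, just past 1.5-fold, and 0.52 (0.25 to 0.81) in shA5, just short of it. At the low end FANCI, the partner of FANCD2 in the clamp, had 127, 72, 74 and 81 counts, at -1.61 (-2.07 to -1.21) and -1.12 (-1.61 to -0.66). Exons of FANCI overlap the antisense gene POLG and those of SLX4 an unnamed antisense gene.

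FANCG had 873, 895, 551 and 837 counts and was called lower in both populations, at -0.78 (-0.92 to -0.65) and -0.66 (-0.82 to -0.50). An unnamed gene overlaps it on the same strand. FANCA, a core subunit, had 80, 134, 45 and 117 counts and lay near 0 at -0.07 and 0.11. BRIP1, a helicase that binds BRCA1, had 86, 108, 44 and 63 counts, at -0.48 and -0.73, and DCLRE1B, a nuclease that trims chromosome ends, had 103, 125, 49 and 100, at -0.53 and -0.23. Core complex genes were thus found above, near and below 0.

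None of the 4 end-joining genes was called higher in the m6A-IP and 3 were called lower in both populations, with a median of -0.94 in shCTL and -1.04 in shA5. PARP1 is found on the minus strand of chromosome 1 from 226360691 to 226408093 and had 9509, 9697, 5209 and 6452 counts. Its enrichment of -0.79 (-0.83 to -0.75) in shCTL and -0.95 (-1.01 to -0.90) in shA5 had the narrowest interval of all. PRKDC, the catalytic subunit of the DNA-dependent kinase, had 703, 504, 326 and 358 counts, at -1.29 (-1.47 to -1.13) and -1.12 (-1.35 to -0.91). XRCC6, the Ku70 subunit that holds broken ends, had 76, 62, 72 and 59 counts, at -1.09 (-1.62 to -0.61) and -1.53 (-2.07 to -1.03). LIG3, the ligase of the alternative route, had 150, 233, 88 and 177 counts and lay near the median of all genes, at -0.18 and -0.25.

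The next comparison asked whether the loss of ALKBH5, an m6A eraser, went with a change of m6A enrichment on these mRNAs. MUS81 was the only 1 of the 23 genes at or past 1.5-fold, and its enrichment was higher in shA5. The change was 0.91 on the log2 scale (95% interval 0.29 to 1.55), a 1.87-fold difference. No gene was called lower. Over all genes 5.38% were called higher and 5.09% lower, so 1 and 0 of 23 are near the background and are not a result about these genes as a group. The median change was 0.11 (interval -0.08 to 0.19), beside 0.00 over all genes, with 15 genes above 0 and 8 below.

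By a looser reading, the counting interval left out 0 for 1 gene upward, MUS81, where 8.18% of all genes did so, and for 1 gene downward, PARP1, where 8.06% did. Both shares are again near or under the background. PARP1 changed by less than 1.5-fold, with -0.17 (95% interval -0.23 to -0.10), a small difference that its depth put outside counting error. For MUS81 the input RNA was -0.46 (-0.91 to -0.04) and the m6A-IP RNA 0.45 (0.02 to 0.90), so both sides of the ratio moved and neither alone reached 1.5-fold. The counts behind it, as low as 65 and 85, are few, and with a mean of at least 200 counts MUS81 would not have entered.

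**Figure D3:**
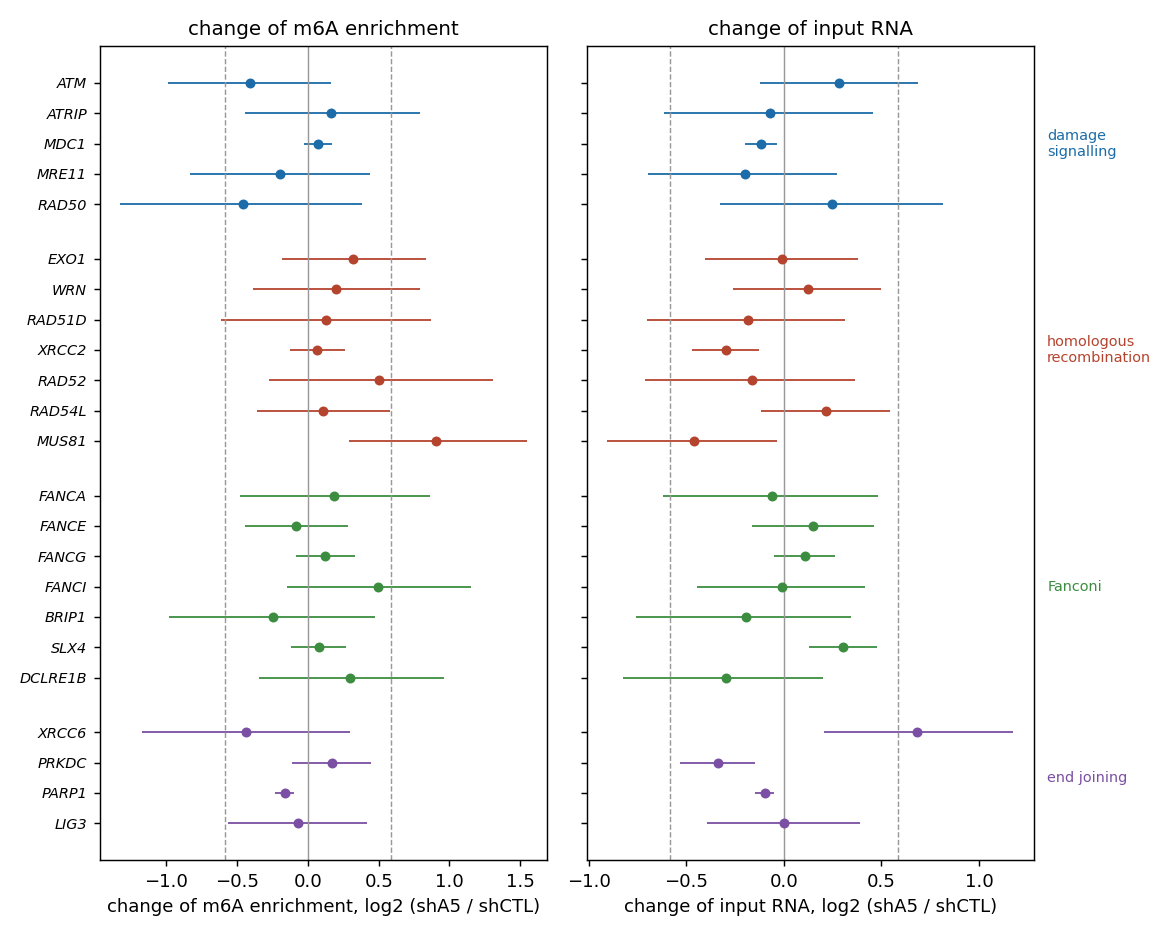
Change from shCTL to shA5 of m6A enrichment (left) and of input RNA (right), log2, for the 23 genes with exact 95% counting intervals and dashed lines at 1.5-fold. MUS81 lies past the line for enrichment and XRCC6 for input RNA, and the other genes lie between the lines.

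Seen by list, the 7 recombination genes all had a change of enrichment above 0, from 0.07 in XRCC2 to 0.91 in MUS81, with a median of 0.20. Over all genes 2684 of 5320 lay above 0, and of the 12 recombination genes under the count minimum 7 lay below 0. Only the interval of MUS81 left out 0. RAD52 had 0.50 (-0.28 to 1.31), EXO1 0.32 (-0.19 to 0.84), WRN 0.20 (-0.39 to 0.79), RAD51D 0.13 and RAD54L 0.11 (-0.36 to 0.58). Summed over all 19 recombination genes, where XRCC2 weighs most, the change was 0.01. The Fanconi genes had a median of 0.12, with FANCI at 0.49 (-0.15 to 1.15), DCLRE1B at 0.30, FANCA at 0.19, FANCG at 0.12 (-0.09 to 0.33), SLX4 at 0.07 (-0.12 to 0.27), FANCE at -0.08 (-0.44 to 0.28) and BRIP1 at -0.25. Their summed counts gave 0.15 (0.03 to 0.26).

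For signalling the median change of enrichment was -0.19. The kinase and MRN genes lay at -0.41 (-0.99 to 0.16) for ATM, -0.46 (-1.33 to 0.38) for RAD50 and -0.19 (-0.83 to 0.44) for MRE11, all with intervals that hold 0. ATRIP had 0.17 (-0.44 to 0.79) and MDC1 0.07 (-0.03 to 0.17). For a gene as deep as MDC1 the interval leaves out any change past 1.5-fold, so depth was not the limit there. End joining had a median of -0.12, with XRCC6 at -0.44 (-1.17 to 0.29), PARP1 as above, LIG3 at -0.07 and PRKDC at 0.17 (-0.11 to 0.45). The summed end-joining counts, nearly all from PARP1, gave -0.15 (-0.21 to -0.08), and those of all 59 genes -0.01 (-0.05 to 0.04).

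Input RNA of these genes differed little between shA5 and shCTL. XRCC6 was the only gene at or past 1.5-fold, with 76 counts in shCTL and 72 in the shallower shA5 library. Its input RNA rose by 0.68 on the log2 scale (95% interval 0.21 to 1.18), or 1.61-fold. No gene fell by 1.5-fold. Over all genes 3.44% rose and 6.43% fell, so 1 and 0 of 23 are near the background. The median change of the 23 genes was -0.06 (interval -0.18 to 0.12), beside -0.02 over all genes.

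XRCC6 is found on the plus strand of chromosome 22 from 41621350 to 41664039 and overlaps no other annotated gene. Its m6A-IP RNA was 0.25 (-0.29 to 0.79), so the difference seen in the input was smaller after the pull-down. The counting interval of the input change left out 0 upward for XRCC6 and SLX4, 2 of 23 where 12.9% of all genes did so, and downward for MDC1, XRCC2, MUS81, PRKDC and PARP1, 5 of 23 where 15.6% did. Neither count is far from its background. SLX4 had 0.30 (0.13 to 0.48), XRCC2 -0.30 (-0.47 to -0.12), PRKDC -0.34 (-0.53 to -0.15), MDC1 -0.12 (-0.20 to -0.03) and PARP1 -0.10 (-0.15 to -0.05). These are differences outside counting error but under 1.5-fold, between single cultures.

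The rest of the 23 genes had an input change whose interval held 0. In signalling these were ATM at 0.28 (-0.12 to 0.69), RAD50 at 0.25, ATRIP at -0.07 (-0.61 to 0.46) and MRE11 at -0.20. In recombination RAD54L lay at 0.21, WRN at 0.12, EXO1 at -0.01, RAD52 at -0.16 and RAD51D at -0.18. The Fanconi genes FANCE and FANCG lay at 0.15 (-0.16 to 0.46) and 0.11 (-0.05 to 0.26), FANCI at -0.01, FANCA at -0.06, BRIP1 at -0.19 and DCLRE1B at -0.30, and LIG3 at 0.00. Summed counts gave -0.08 for signalling, -0.12 (-0.23 to -0.01) for recombination, 0.14 (0.04 to 0.23) for Fanconi and -0.10 (-0.15 to -0.05) for end joining, all under 1.5-fold.

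In the m6A-IP libraries 0 of 23 genes were called in either direction, where 2.58% of all genes were called higher and 4.89% lower, again near the background. The median was 0.07 beside -0.02. Apart from MUS81, the genes with the highest m6A-IP values were FANCI at 0.48 (0.02 to 0.97), SLX4 at 0.38 (0.30 to 0.46) and RAD52 at 0.34 (-0.22 to 0.92). BRIP1 at -0.44 (-0.92 to 0.01) and MRE11 at -0.39 were the lowest. Since changes of enrichment, input and m6A-IP share libraries, they are not separate evidence.

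The study names BRCA1, TP53BP1 and PALB2 as repair genes and measured them by RT-qPCR, so they are given here although all 3 lie under the count minimum. BRCA1, which helps load the recombinase on resected ends, had 11, 16, 7 and 8 counts. Its input change was 0.11 (95% interval -1.49 to 1.62) and its change of enrichment -0.69 (-2.89 to 1.32). PALB2, the bridge between BRCA1 and BRCA2, had 11, 5, 10 and 10 counts, with an input change of 0.59 (-0.76 to 2.01) and a change of enrichment of 0.47 (-1.55 to 3.02). For both genes these intervals reach past 1.5-fold in either direction. TP53BP1, which protects ends from resection, had 29, 57, 26 and 21 counts. Its input change was 0.59 (-0.21 to 1.43), while its enrichment went from 0.15 (-0.51 to 0.86) in shCTL to -1.50 (-2.47 to -0.69) in shA5, a change of -1.65 (-2.87 to -0.59). That interval leaves out 0 on the lower side, on few counts, and exons of TP53BP1 overlap the antisense gene TUBGCP4.

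The study's primers for these genes are shown, so that their amplicons can be set beside the annotated transcripts that the counts are given for. They come from the supplementary tables and were matched to hg38 transcripts of Gencode v44. The pair named for PALB1 matched transcripts of PALB2 only.

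BRCA1-F: accttggaactgtgagaactct

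BRCA1-R: tcttgatctcccacactgcaata

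TP53BP1-F: atggaccctactggaagtcag

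TP53BP1-R: tttctttgtgcgtctggagatt

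PALB1-F: aggatctctcaccgcagctaa

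PALB1-R: tcaggcccaacatcaagtgtg

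The BRCA1 forward primer lies in exon 7 of ENST00000471181 on the minus strand (chr17:43099828-43099849) and the reverse primer spans the junction of exons 8 and 9 (chr17:43097244-43097251 and chr17:43095908-43095922). The pair is in 17 of 24 coding transcripts and bounds 136 bases. The TP53BP1 pair lies in exon 2 on the minus strand (chr15:43492440-43492460 and chr15:43492295-43492316), in 4 of 4 coding transcripts, and bounds 166 bases. The PALB2 pair lies in exons 3 and 4 on the minus strand (chr16:23637859-23637879 and chr16:23636232-23636252), in 4 of 4 coding transcripts, and bounds 133 bases. In each of the 3 amplicons, 0 bases belong to a single coding transcript of the gene.

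That last property was examined after the counts had been seen to be low for well-known repair genes. For each gene, the bases covered by exactly 1 annotated coding transcript were called its own bases. Of 56507 coding transcripts, 32.0% have no base of their own, and these transcripts held 2.51% of all counts. They were listed in 24.9% of cases, against 70.8% of transcripts with at least 200 own bases. How the counting treated reads shared between transcripts is not stated, and whether such reads were dropped was not tested.

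Among the repair genes, 91 of 229 coding transcripts have no own base and they held 0.892% of the members' counts. The 9 members with a single coding transcript, MDC1, RAD50, WRN, XRCC2, FANCE, FANCF, SLX4, PARP1 and POLQ, held 82.7% of the counts, and 7 of these 9 passed the minimum. Of 6 members with under 100 own bases 0 passed, beside 7.34% of all genes in that range. Of 14 members with 100 to under 500 own bases 4 passed, beside 12.7%, and of 17 with 500 to under 2000 own bases 9 passed, beside 22.7%. Of 22 members with at least 2000 own bases 10 passed, beside 45.4%. BRCA1 has 871 own bases of 8201 exonic bases (10.6%), TP53BP1 2158 of 10614 (20.3%) and PALB2 869 of 4871 (17.8%).

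**Figure D4:**
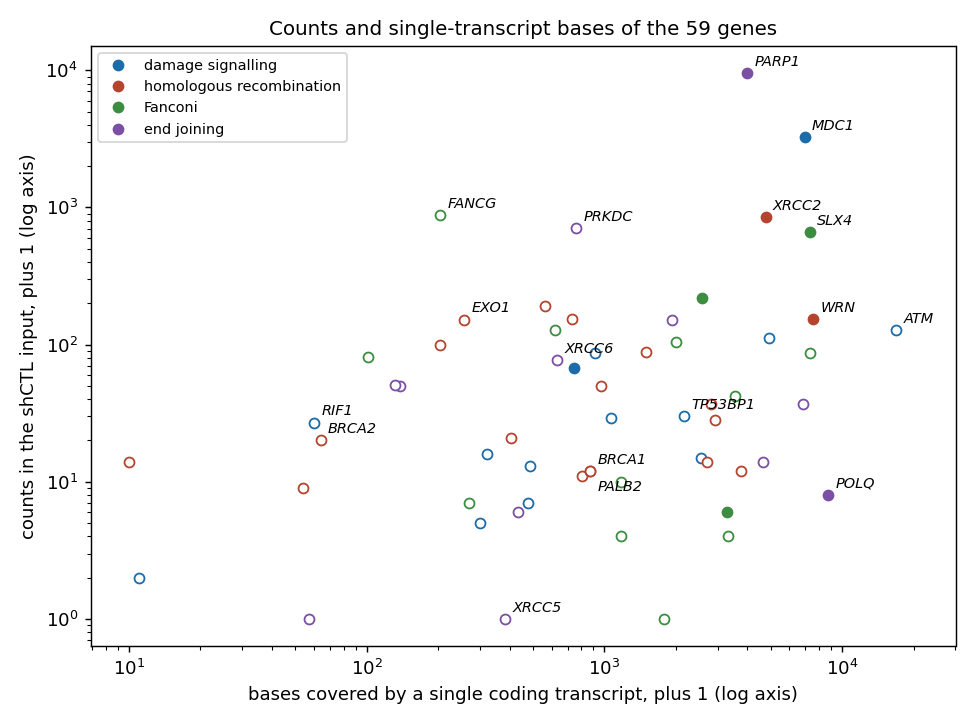
Counts in the shCTL input plus 1 against the bases covered by a single coding transcript plus 1 (both log axes) for the 59 genes, filled for genes with 1 coding transcript, with genes not listed drawn at a count of 0. PARP1, MDC1, XRCC2 and SLX4, each with 1 coding transcript, lie at the upper right, while POLQ, also with 1, had 7 counts.

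With own bases as the length, FANCG came to 1922 CPM per kilobase in the shCTL input, above PARP1 at 1068, and PRKDC to 414 in place of 23.4. Counts of ATM were mostly on a short form of 4 exons, ENST00000530958, with 4717 own bases, which held 116, 118, 84 and 85. The coding ENST00000452508 of 64 exons has 12155 own bases and held 0, 0, 1 and 0, and ENST00000278616, also of 64 exons and annotated as subject to nonsense-mediated decay, held 10, 8, 5 and 7. The values of ATM above are thus mainly those of the short form. Own bases did not order the counts in every gene, since RAD51D ENST00000345365, with 0 own bases, held 91, 63, 48 and 49 counts, most of those of the gene.

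Where the own bases lie was looked at after the enrichments were known. In the 48 listed members with over 1 coding transcript, 50.4% of counts were on transcripts whose own bases are mostly in the 5′ UTR, 6.05% mostly in the coding sequence and 43.6% mostly in the 3′ UTR. Over all such genes the shares were 20.2%, 28.3% and 51.4%. The 6 members of the first kind, ATM, EXO1, RAD54L, MUS81, FANCG and XRCC6, were all called lower in the shCTL m6A-IP, with a median of -0.94, where 25.0% of 591 such genes were called lower with a median of -0.08. The 8 members with own bases mostly in the 3′ UTR, ATRIP, MRE11, RAD52, FANCA, BRIP1, DCLRE1B, PRKDC and LIG3, had a median of -0.48 with 2 called lower, where 39.4% of 1609 such genes were. The 7 members with 1 coding transcript had a median of 0.31, beside 0.04 over 2330 such genes, with 3 called higher and 3 lower, where 28.2% and 25.1% of such genes were. RAD50 is among these 7, although only 747 of its 8272 bases are its own and a gene on the same strand overlaps it. FANCI, with own bases mostly in coding sequence, and RAD51D, whose most counted transcript has none, make up the 23. The part of this in the low enrichments was not tested.

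Several members also held counts on more than 1 transcript, and these did not always have the same enrichment. The transcripts described here were picked after their values were seen. FANCA ENST00000389301 of 43 exons had 53, 121, 25 and 111 counts and an enrichment of 0.37 (-0.10 to 0.87) in shCTL, while the short ENST00000563673 of 10 exons had 24, 6, 17 and 6 counts and -2.47 (-4.40 to -1.49). In shA5 the values were 0.87 (0.25 to 1.58) and -2.48 (-4.40 to -1.36), so the value of FANCA near 0 sums transcripts of which the short one was low in both populations and the long one past 1.5-fold higher in shA5 only. RAD52 ENST00000358495 had 41, 8, 17 and 22 counts, at -2.90 (-4.48 to -2.06) in shCTL and -0.85 (-1.87 to 0.11) in shA5, where ENST00000536177 had -0.89 and -0.96. Taken alone, that first RAD52 transcript had a change of enrichment of 2.05, where the gene as a whole had 0.50, on counts under the minimum used for calls.

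FANCI ENST00000310775 had 113, 52, 57 and 77 counts, at -1.90 (-2.44 to -1.45) in shCTL and -0.82 (-1.34 to -0.31) in shA5. The shorter ENST00000567996 had 9, 18, 16 and 4 counts, at 0.16 (-1.05 to 1.52) and -2.84 (-5.30 to -1.63). The 2 forms thus went opposite ways between the populations, on few counts for the shorter one. For MRE11 the main ENST00000323929 had -0.53 and -0.56, and for ATRIP ENST00000320211 had 0.50 and 0.76, close to the values of the genes. Other forms of both lay apart from these on few counts. MRE11 ENST00000540013 had 0.31 and -0.22 and ENST00000323977 -1.04 and -1.90, and ATRIP ENST00000412052 had 0.23 and -0.17. PARP2 ENST00000527915 had 41, 22, 28 and 5 counts, at -1.63 and -3.39, and ENST00000429687 had 8, 28, 12 and 17 counts, at 0.90 and -0.71.

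**Figure D5:**
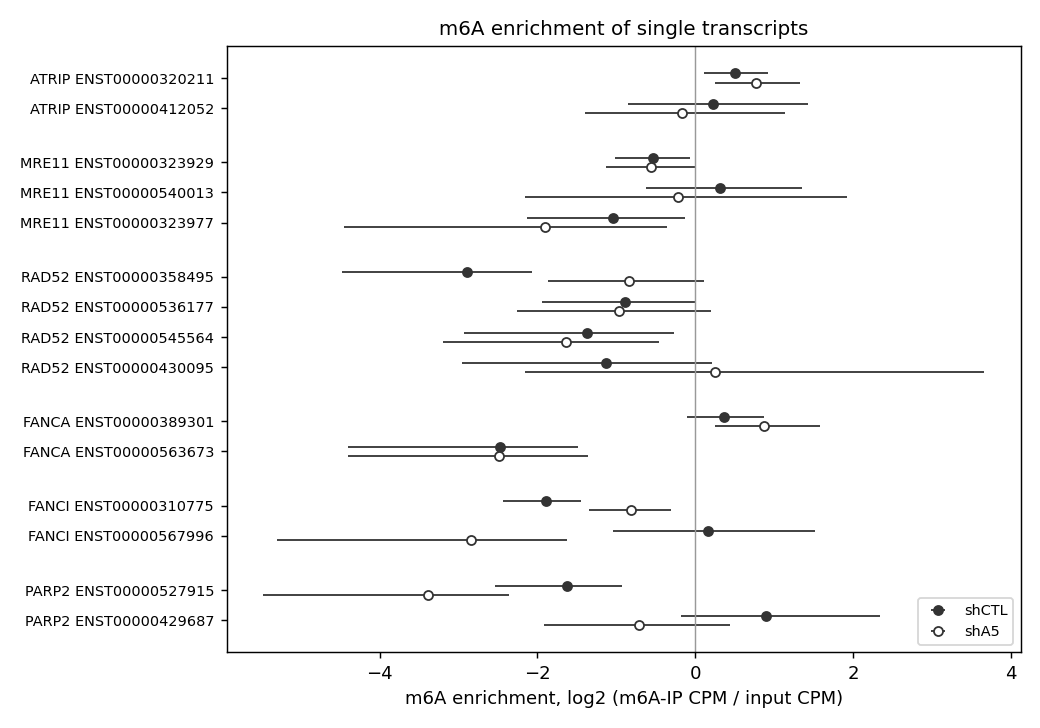
m6A enrichment (log2 of m6A-IP over input CPM) of single transcripts of 6 members with at least 25 counts in all, with exact 95% counting intervals, filled for shCTL and open for shA5. The 2 transcripts of FANCA lie far apart in both populations, and those of FANCI swap places.

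The 34 listed members under the minimum are given by their counts. In signalling these were ATR with 15, 26, 10 and 22 counts and its substrate CHEK1 with 28, 29, 10 and 14, while TOPBP1, the activator of ATR, had 12, 12, 3 and 9. CHEK2, the kinase downstream of ATM, had 6, 1, 7 and 1. RIF1, which acts with TP53BP1, had 26, 80, 28 and 50 counts, and its enrichment was 0.78 (0.15 to 1.5) in shCTL and -0.42 (-1.12 to 0.30) in shA5. NBN, the MRN subunit that recruits ATM, had 14, 16, 9 and 12. UIMC1 and BABAM1 of the BRCA1-A complex had 4, 9, 6 and 8, and 1, 9, 1 and 5. The kinases of the checkpoint were thus all but ATM too low for a call.

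In recombination, RBBP8, which starts resection, had 20, 19, 17 and 24 counts, DNA2 10, 19, 14 and 9, and the helicase BLM 49, 49, 22 and 25. BARD1, the partner of BRCA1, had 27, 8, 16 and 13 counts and BRCA2, which loads the recombinase, had 19, 3, 11 and 2. With 3 and 2 counts in the m6A-IP the enrichment of BRCA2 was -2.83 (-5.88 to -1.72) and -2.97 (-6.94 to -1.53). Both populations thus had BRCA2 counts mainly in the input. Of the paralogs, RAD51B had 11, 24, 7 and 14, RAD51C 36, 9, 14 and 7, and XRCC3 8, 36, 16 and 21. RAD54B had 13, 10, 6 and 12 and EME1, the partner of MUS81, had 13, 40, 12 and 28. RAD51C had an enrichment of -2.58 (-4.06 to -1.74) in shCTL, at the low end as RAD51D was.

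Among the Fanconi genes, FANCD2, the clamp partner of FANCI, had 41, 19, 34 and 32 counts, with an enrichment of -1.82 (-2.79 to -1.11) and -1.31 (-2.09 to -0.61). The core members FANCC and FANCF had 9, 11, 3 and 23, and 5, 21, 1 and 19. FANCL, the ubiquitin ligase of the core, and the translocase FANCM had 3, 0, 2 and 0, and 3, 0, 2 and 1 counts. The nuclease DCLRE1A had 6, 13, 1 and 6. FANCD2 and FANCI thus both lay low in the m6A-IP. FANCF lay above 0 on few counts, at 1.09 (-0.19 to 3.02) in shCTL and 2.37 (0.33 to 8.36) in shA5. FANCC had -0.46 (-1.94 to 0.92) and 1.49 (-0.05 to 4.05).

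In end joining, XRCC5, the Ku80 partner of XRCC6, had 0, 2, 0 and 1 counts. No ratio is given for it. The nuclease DCLRE1C had 36, 18, 11 and 14 counts, the ligase LIG4 5, 8, 2 and 4, its cofactor NHEJ1 13, 12, 6 and 4, and POLQ, the polymerase of end joining by short homologies, 7, 2, 5 and 4. XRCC1, the scaffold for LIG3, had 50, 34, 33 and 54, and PARP2 49, 50, 40 and 22. Ku80 protein is needed wherever Ku70 is, and the counts of the pair differed between 0 and 76 in the same library. XRCC4, the other partner of LIG4, was among the genes without a listed transcript.

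A band of 21 of these genes had a mean of 10 to under 50 counts, and it was examined after their values were seen. The interval of the change of enrichment lay below 0 for 5 of them, TP53BP1, RIF1, DNA2, XRCC3 and PARP2, and above 0 for 0. Over the 3949 genes in that band, 4.36% lay below 0 and 3.87% above. The 5 of 21 exceed that background, though the band was chosen after the fact and each value rests on few counts. By size alone the band was even, with 6 of the 21 at or past 1.5-fold higher (BARD1, RAD54B, FANCC, FANCF, DCLRE1C and XRCC1) and 7 lower (the 5 above, BRCA1 and EME1), beside 22.2% and 23.6% of all genes in the band. DNA2 had a change of -1.83 (-3.87 to -0.18), XRCC3 -2.07 (-3.88 to -0.63), RIF1 -1.19 (-2.23 to -0.23) and PARP2 -1.28 (-2.36 to -0.33). XRCC3 overlaps the antisense gene KLC1, and for PARP2 the fall was in both transcripts described above.

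The members' mRNAs differed from those of all genes in their build, which the choice by symbol did not use. Over the most counted transcript of each of the 23 genes, the median length was 4771 bases beside 3590, the median coding length 2373 beside 1395, and the median number of exons 16 beside 9. The longest exon had a median of 2159 beside 1894 bases, GC content 47.6% beside 51.4%, and the DRACH context of m6A 19.1 beside 18.3 matches per kilobase. Genes with more exons had lower enrichment, with a Spearman correlation of -0.29 across the 23 and -0.26 across 5292 genes. With GC content it was 0.16 and 0.36, with DRACH matches 0.23 and -0.15, and with the longest exon 0.28 and 0.06. Own bases of the transcript, described above, had a median of 830 beside 2150.5 and a correlation with enrichment of 0.37 and 0.01, the largest of these in the members. These are descriptions across genes that are not independent, and 23 points leave them loose.

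A further 52 genes of the same pathways, listed by role and not by how they moved, were measured in the same way, and 21 of 51 listed ones passed the minimum. In shCTL 4 of the 21 were called higher in the m6A-IP and 8 lower, beside 22.5% and 30.3% of all genes. The median was -0.05, closer to that of all genes than the median of the 23 members. H2AX, the histone phosphorylated around breaks, had 1177, 4083, 862 and 4111 counts and an enrichment of 0.98 (0.88 to 1.07), and EME2, a further partner of MUS81, had 1275, 5927, 868 and 6069 counts and 1.40 (1.31 to 1.49). UBE2T, the E2 enzyme of the Fanconi core, lay lowest at -1.91 (-2.26 to -1.60). For the change of enrichment 0 were called higher and 1 lower, POLM at -0.61 (-1.41 to 0.18), and for input RNA 0 rose and 1 fell, USP1, which removes ubiquitin from FANCD2, by -0.68 (-1.12 to -0.26). Both are near the background, as for the members.

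Many repair genes are transcribed with the cell cycle, so cycle genes are given beside them. Of 15 S phase genes 9 passed, with an enrichment median of -0.54 in shCTL, 1 called higher and 4 lower. Their input change had a median of 0.20, 7 of 9 lay above 0, where 2527 of all 5320 genes did, and 0 passed 1.5-fold. For 4 of the 9 the interval lay above 0, where 12.9% of all genes did so, and for 0 it lay below, where 15.6% did. The summed counts gave 0.12 (0.07 to 0.17). Of 20 G2 and mitosis genes 9 passed, with an enrichment median of -0.30, 0 called higher and 4 lower. Their input change had a median of -0.04, with UBE2C called higher at 1.02 (0.35 to 1.74) and CENPF at -0.41 (-0.50 to -0.31). The interval lay above 0 for 1 of these 9 and below 0 for 3, and the summed counts gave -0.19 (-0.24 to -0.14). The part of cycle phase in any value of the repair genes was not tested.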

How the data were processed

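Each of the 4 libraries has a table of integer counts by Ensembl transcript, deposited by the authors. The submitters' processing notes name bcl2fastq 2.0, fastp 0.23.2, HISAT2, SAMtools 1.9, MACS2 and hg38. The paper's methods name StringTie for quantification of genes. Whether it wrote these counts, with which annotation release, use of strand and handling of shared reads, is not stated. Members, lists and alternatives were chosen with earlier results of these data known. Counts were summed over the transcripts of a gene and scaled to library totals as CPM. No test was made, as no group has a replicate. Intervals are Clopper-Pearson for ratios of CPM and the conditional odds ratio for changes of enrichment. Genes are named if past 1.5-fold in a change, if among the 5 highest or 5 lowest enrichments in shCTL, if leading 1 of 12 roles in counts, or if named by the study, which gave 18 genes. Others were named after their values were seen, or to account for each member. Alternatives were edgeR 4.0.16 and DESeq2 1.42.0 factors (R 4.3.3), pseudocounts, count minimums, a 2-fold threshold and single transcripts. Steps were tested on simulated data with Python 3.11.15, numpy 2.4.6, pandas 2.3.3, scipy 1.17.1 and matplotlib 3.10.9.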

Additional observations from a re-analysis of the deposited data

How the results depend on the processing

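Of 104 counts and medians recomputed under alternatives, 72 stayed within 1.5 times the count or within the interval of the median, 30 moved, and 2 medians past 1.5-fold changed sign. The input median of -0.06 was 0.01 at the minimum of 10 counts and 0.00 without a filter, both above 0 and inside its interval. The main values were 3 genes higher and 13 lower in the shCTL m6A-IP, 3 and 14 in shA5, 1 and 0 for the change of enrichment and 1 and 0 for input RNA. With TMM factors and with DESeq2 factors, 5 genes were higher in the m6A-IP in shCTL and 5 in shA5, since these factors raise all enrichments. With a mean of at least 10 counts (44 members), 7 genes were higher and 23 lower in shCTL, 5 and 27 in shA5, 7 and 7 for the change of enrichment, and 6 and 4 for input RNA. All genes there gave 18.9% and 35.8%, 21.3% and 37.8%, 12.6% and 13.0%, and 9.32% and 12.5%. Without a filter (54 members, 53 for input RNA), the numbers were 8 and 29, 7 and 33, 9 and 11, and 9 and 6, beside 21.6% and 36.7%, 24.5% and 37.5%, 22.7% and 21.4%, and 15.3% and 19.9% of all genes. More genes, with fewer counts each, enter under both. With a mean of at least 200 counts 7 members were left, 3 higher and 3 lower in shCTL and 2 and 3 in shA5. All genes there gave 29.1% and 21.7%, and 31.0% and 23.7%. The medians were 0.31 and 0.38 in place of values below 0 (all genes 0.12 and 0.16), and 0 members were higher for both changes. At 2-fold, which fewer genes pass, 0 members were higher and 9 lower in shCTL, and 1 higher and 7 lower in shA5. Beside these, 10.11% of all genes were higher and 16.88% lower in shCTL, and 11.97% and 18.44% in shA5. For both changes 0 members passed 2-fold. With the most counted transcript alone 2 of 22 genes were higher for the change of enrichment, MUS81 at 0.95 and FANCI at 1.08, and the cause was not tested. Of all 4999 genes there 5.58% were higher, so 2 is near the background. RAD52 fell under the count minimum there, which left 22 members.

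Of 360 values of named genes 329 stayed in their intervals and 31 moved, 14 under TMM, 15 under DESeq2 factors and 2 with single transcripts, and 0 of those called changed sign. The enrichment of BRCA1 in shCTL, -0.25, was 0.01 under TMM, 0.05 under DESeq2 factors and 0.25 with its most counted transcript, and the input change of MRE11, -0.20, was 0.06 with its own. The level per own kilobase was an alternative chosen after the data were seen. No paired analysis was possible because the values come from no test, and with 1 library in a group no replicate could be left out. The shA5 input was the shallowest library, no group had a replicate, and 34 listed members lay under the count minimum.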
